A study of Mus musculus with 4 samples.

Results

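The chemokine ligand genes Cxcl1, Cxcl2, Cxcl10, Cxcl16, Ccl3, Ccl4, Ccl5, Ccl6 and Ccl9 were examined in the blood of naringenin (Nar)-treated mice. The 9 genes were taken by their symbols from a table of 23136 genes, and 8 of them had values in the 4 blood libraries, while Cxcl1 was listed with blank cells in each. Blood was taken from C57BL/6 mice, labelled adult and described in the study as aging, after 30 days of treatment. The Ctrl group (labelled Ctrl1 and Ctrl3, here Ctrl 1 and Ctrl 3) received phosphate-buffered saline (PBS), and the Nar group (labelled Nari1 and Nari3, here Nar 1 and Nar 3) received naringenin, a flavonoid, by tail vein injection. No transgene or other treatment is named for either group. Each library was made from mRNA selected with oligo(dT) beads from blood, so cell types were not separated. Expression is given as deposited FPKM (fragments per kilobase of transcript, scaled to the mapped fragments of each library).

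Chemokines are small secreted proteins that steer leukocytes along concentration gradients by binding receptors on the cell surface. Inducible ligands such as Cxcl1, Cxcl2, Ccl3 and Ccl4 are transcribed within hours of a danger signal, largely through NF-kappaB, and call neutrophils and monocytes to a tissue. Ccl6 and Ccl9 are made by mouse myeloid cells without such a signal, whereas Ccl5 is stored as message and protein by memory T cells and natural killer (NK) cells. Cxcl10 is induced by interferon, and Cxcl16 is made as a membrane-bound ligand that proteases can shed.

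The libraries were dominated by red cell RNA, with haemoglobin genes making up 92.6% to 96.4% of the summed FPKM. Tested genes, those with a mean FPKM of at least 0.5, had median values of 1.85 and 1.97 FPKM in Ctrl and 0.89 and 0.74 FPKM in Nar, and the median log2 fold change of all 5339 was -1.07. Fold changes of the ligands are therefore set beside this shift and beside their values under median-of-ratios scaling, which brings the median of the tested genes to a log2 fold change of -0.0016 by construction. Read totals were not used here. In genes with a single transcript the low values fell nearest to multiples of 0.0435 to 0.045 FPKM for a transcript of 1 kilobase. This step was taken as the approximate worth of 1 fragment. The mean distance from the nearest whole step was 0.158 to 0.19 of a step, against 0.25 for values without steps. Since the step with the smallest distance was chosen in each library, this comparison favours it. Fragment numbers below were derived from the chosen step and the length of one annotated transcript per gene, and they are approximate and entered no test.

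In the GRCm38 annotation (GENCODE M21), Cxcl1 and Cxcl2 were neighbours on chromosome 5, at chr5:90891241-90893115 and chr5:90903871-90905938 on the + strand, and Cxcl10 lay further along at chr5:92346638-92348889 on the - strand. The CC ligands formed a cluster on chromosome 11. Ccl5 lay at chr11:83525778-83530518, Ccl9 at chr11:83572919-83578636, Ccl6 at chr11:83587882-83593087 and Ccl3 at chr11:83647844-83649355, all on the - strand, while Ccl4 lay at chr11:83662584-83664683 on the + strand. Cxcl16 stood apart on the same chromosome, at chr11:70453983-70459984 on the - strand. The annotated transcripts have 3 to 5 exons. Exact shared stretches were short, since the longest run shared by any of 36 pairs of transcripts was 25 bases, between Ccl6 and Ccl9, followed by 23 bases between Cxcl1 and Cxcl2. Stretches alike but for mismatches were not measured. RefSeq's extents of Ccl3 and Ccl4, which lie on opposite strands, overlap by 755 bases, and whether counting used strand is not given in the sources used here.

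The promoters of the neighbours Cxcl1 and Cxcl2 are shown because Cxcl2 differed most of the tested ligands while Cxcl1 had no value, and that of Ccl6 as the myeloid ligand with the highest level. RefSeq windows (GRCm38.p6) were found for 6 of the 9 genes. The 170 bases before the RefSeq start site are printed 5′ to 3′ on the gene's strand. Capitals mark the longest run that Cxcl1 and Cxcl2 shared in this stretch.
Cxcl1 (chr5:90891075-90891244, + strand): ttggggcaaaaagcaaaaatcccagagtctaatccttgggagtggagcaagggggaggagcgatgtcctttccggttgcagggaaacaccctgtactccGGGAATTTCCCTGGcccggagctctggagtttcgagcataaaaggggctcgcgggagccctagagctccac
Cxcl2 (chr5:90903729-90903898, + strand): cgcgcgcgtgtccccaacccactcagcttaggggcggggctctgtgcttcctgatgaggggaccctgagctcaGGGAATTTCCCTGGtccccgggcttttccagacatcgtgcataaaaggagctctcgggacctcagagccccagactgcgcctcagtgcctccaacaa
Ccl6 (chr11:83593088-83593257, - strand): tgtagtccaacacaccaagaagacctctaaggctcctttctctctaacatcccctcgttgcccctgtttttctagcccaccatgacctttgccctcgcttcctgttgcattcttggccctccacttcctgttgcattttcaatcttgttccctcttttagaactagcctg
The shared run of 14 bases, GGGAATTTCCCTGG, contains a kappaB-like sequence, the kind of site that NF-kappaB binds. It began 71 bases before the start in Cxcl1 and 97 bases before it in Cxcl2. Searched on both strands of 32817 RefSeq windows of 300 bases, which reach 250 bases before and 50 after the start, it occurred in 2 (0.00609%), those of Cxcl1 and Cxcl2, from which it was taken. These exact 14 letters did not occur in the windows of Cxcl10, Ccl3, Ccl6 and Ccl9. Other kappaB-like sequences were not searched for, so this does not show that those windows lack such sites. A match describes the letters and is not a measured binding site.

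In control blood the 8 ligands summed to 71.5 and 62.6 FPKM, and in Nar blood to 17.9 and 15.4 FPKM. In such bulk samples fewer cells of a type and less RNA per cell cannot be told apart. Ccl6 and Ccl5 led in controls, with Ccl6 at 27.3 and 23.3 FPKM and Ccl5 at 23.0 and 25.4 FPKM. Their order differed between the control libraries, so these levels did not differ beyond their spread. Cxcl2 came next at 13.4 and 10.5 FPKM. Ccl3, Ccl9 and Ccl4 followed between 0.83 and 4.62 FPKM. Both values of Ccl3 lay above both of Ccl4, and Ccl9 overlapped each of them. Cxcl16 and Cxcl10 were at 0.15 FPKM or lower. In Nar blood Ccl5 stood above Ccl6 in both libraries, Ccl9 followed Ccl6, and Ccl3, Cxcl2 and Ccl4 lay together between 0.12 and 0.39 FPKM.

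**Figure D1:**
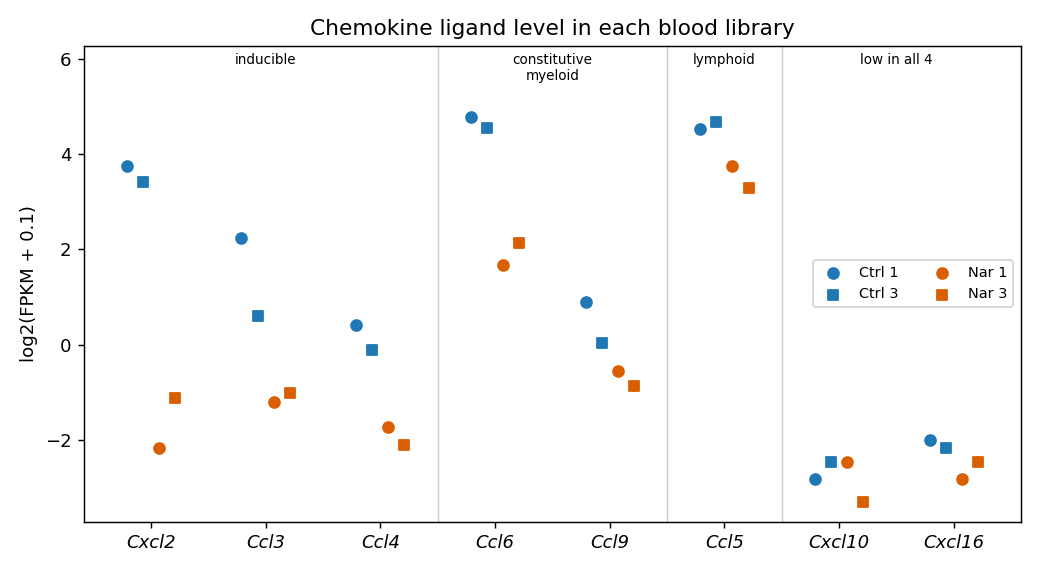
Levels of 8 chemokine ligands on the log2(FPKM + 0.1) scale in each library, grouped by class. Blue points are Ctrl and orange points Nar, with circles for library 1 and squares for library 3. The Nar points lie below the Ctrl points for each ligand except Cxcl10, and the gap is widest for Cxcl2. Both Nar libraries also lay below both Ctrl libraries for 78.3% of tested genes and 52.7% of genes with a value above 0.

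The make-up of the summed signal differed as well. Ccl5 supplied 32.1% and 40.5% of it in controls and 75.2% and 62.8% with Nar. Cxcl2 supplied 18.7% and 16.8% in controls and 0.671% and 2.34% with Nar. The share of Ccl6 was 38.2% and 37.2% in controls and 17.2% and 28.1% with Nar. The groups did not overlap for any of these 3 shares, and a share within the ligands does not change when a whole library is rescaled. Since the shares sum to 100%, a lower share of some ligands raises those of the others.

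**Figure D2:**
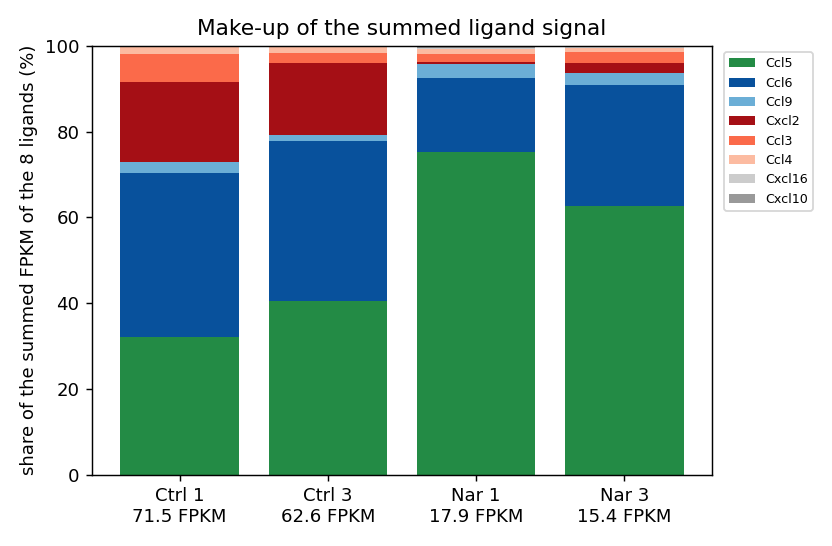
Share of each ligand in the summed FPKM of the 8 ligands (y axis, %) in each library, with the sum under each bar. The Cxcl2 segment takes 18.7% and 16.8% in Ctrl and 0.671% and 2.34% in Nar, and Ccl5 the larger part of both Nar bars.

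Among the inducible ligands, Cxcl2 showed the steepest difference. Cxcl2 (NCBI Gene 20310), a neutrophil attractant that binds Cxcr2, had FPKM values of 13.39 in Ctrl 1 and 10.54 in Ctrl 3, against 0.12 in Nar 1 and 0.36 in Nar 3. The Nar values lay far below the control values, and their mean, 0.24 ± 0.17 FPKM (SD, n = 2), was 2.01% of the control mean of 11.965 ± 2.02 FPKM (SD, n = 2). The log2 fold change of -5.23 (95% interval -6.24 to -4.23, limma adjusted p = 0.00238) ranked lowest of the 5339 tested genes at this pseudocount of 0.1, but 12 from the lowest with a pseudocount of 1 and 8 with 0.01. About 341 and 260 fragments stood behind the control values and about 3 and 9 behind the Nar values, so the low end of this fold rests on few fragments. Under median-of-ratios scaling its log2 fold change was -4.22 and still passed (limma adjusted p = 0.00911).

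Ccl3 and Ccl4, the macrophage inflammatory proteins 1 alpha and beta that attract monocytes and other leukocytes, were lower in Nar too. Ccl3 (NCBI Gene 20302) stood at 4.62 FPKM in Ctrl 1 and 1.42 in Ctrl 3, against 0.33 in Nar 1 and 0.39 in Nar 3. The controls differed widely from each other, with a mean of 3.02 ± 2.26 FPKM (SD, n = 2), but did not overlap the Nar libraries. Its log2 fold change was -2.54 (95% interval -3.70 to -1.39, limma adjusted p = 0.0122), and it was -1.73 without Ctrl 1 and -3.36 without Ctrl 3. Ccl4 (NCBI Gene 20303) was at 1.23 and 0.83 FPKM in Ctrl and at 0.20 and 0.13 FPKM in Nar. This again separated the groups, with a log2 fold change of -2.08 (95% interval -3.09 to -1.08, limma adjusted p = 0.015). Under median-of-ratios scaling Ccl3 had a log2 fold change of -1.51 and Ccl4 one of -1.18, and neither passed (limma adjusted p = 0.206 and 0.279). The Nar values correspond to about 6 and 7 fragments for Ccl3 and about 3 and 2 for Ccl4. Cxcl1 (NCBI Gene 14825), the close relative of Cxcl2, had no value and no level can be given.

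The constitutive myeloid pair moved by unequal amounts. Ccl6 (NCBI Gene 20305), which attracts monocytes and other leukocytes through Ccr1, stood at 27.33 FPKM in Ctrl 1 and 23.32 in Ctrl 3, against 3.08 in Nar 1 and 4.31 in Nar 3. It fell to 14.6% of the control mean, a log2 fold change of -2.76 (95% interval -3.84 to -1.67, limma adjusted p = 0.00774), with about 101 and 143 fragments behind the Nar values. Ccl9 (NCBI Gene 20308), also a Ccr1 ligand, was at 1.77 and 0.92 FPKM in Ctrl and at 0.58 and 0.45 FPKM in Nar. Here the groups lay close together without overlapping, and the log2 fold change of -1.18 (95% interval -2.09 to -0.27, limma adjusted p = 0.0461) was near the shift of all tested genes. It was -0.74 without Ctrl 1 and -1.61 without Ctrl 3. Under median-of-ratios scaling Ccl6 had a log2 fold change of -1.60 and Ccl9 one of -0.14, and neither passed (limma adjusted p = 0.12 and 0.973). The difference between Ccl6 and Ccl9 within a library, on the log2(FPKM + 0.1) scale, was 3.87 and 4.52 in Ctrl and 2.23 and 3.00 in Nar. Ccl6 thus stood less far above Ccl9 in both Nar libraries.

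Ccl5 (NCBI Gene 20304), the lymphoid ligand, stood at 22.96 FPKM in Ctrl 1 and 25.39 in Ctrl 3, against 13.45 in Nar 1 and 9.64 in Nar 3. The groups did not overlap, but the log2 fold change of -1.08 (95% interval -2.20 to 0.04) did not pass (limma adjusted p = 0.097). It differed by only -0.0051 from the shift over the whole tested set, and under median-of-ratios scaling the sign reversed to 0.09 (limma adjusted p = 0.987). About 281 and 300 fragments stood behind the control values and 163 and 118 behind the Nar values.

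Cxcl10 and Cxcl16 were barely detected. Cxcl10 (NCBI Gene 15945) was at 0.04 and 0.08 FPKM in Ctrl and at 0.08 and 0 FPKM in Nar, or about 2 fragments or fewer in each library, and the groups overlapped. Cxcl16 (NCBI Gene 66102) was at 0.15 and 0.12 FPKM in Ctrl and at 0.04 and 0.08 FPKM in Nar, about 2 to 9 fragments. Its Nar values were the lower ones, as were those of 52.7% of genes with a value above 0. Neither gene reached the mean of 0.5 FPKM required for the test, and for Cxcl10 a difference was not detectable at this depth.

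Of the 6 ligands tested, Cxcl2, Ccl3, Ccl4, Ccl6 and Ccl9 were called lower at a limma adjusted p under 0.05, and none higher. Ccl9 was not called with a pseudocount of 1 or without the trend (limma adjusted p = 0.0646 and 0.0631). With haemoglobin genes removed, Ccl4 and Ccl9 were not called (limma adjusted p = 0.137 and 0.389). Across all tested genes 39.6% were called lower and 0.187% higher, and 78.3% had non-overlapping groups with Nar the lower, as the 6 ligands did. Cxcl2, Ccl3 and Ccl4 passed the filter on low values only through their control libraries. The median log2 fold change of the 6 was -2.31 against -1.07 for all tested genes. Under median-of-ratios scaling Cxcl2 alone of the 6 was called, against 32 genes called lower (0.599%) and 10 higher among all tested, where the deposited FPKM gave 2113 lower and 10 higher. Without the filter no gene of any kind was called by limma, with 4978 of 16382 genes at an unadjusted p under 0.05, and a fit without Ctrl 1 or without Ctrl 3 called none, while one without Nar 1 or without Nar 3 called Cxcl2 alone of the ligands.

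**Figure D3:**
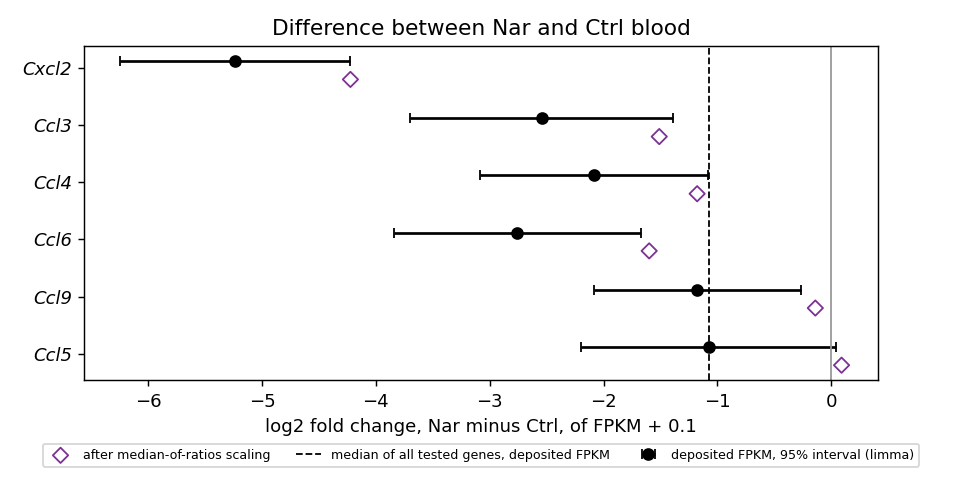
Log2 fold change of FPKM + 0.1, Nar minus Ctrl, of the 6 tested ligands. Black points with bars are limma estimates with 95% intervals on deposited FPKM, open diamonds are values after median-of-ratios scaling, and the dashed line is the median of all tested genes (-1.07). The intervals of Cxcl2, Ccl6, Ccl3 and, only just, Ccl4 lie wholly below the dashed line, and those of Ccl9 and Ccl5 span it.

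To compare the classes, differences were taken within each library, where the scale of the library cancels apart from the pseudocount. The mean log2(FPKM + 0.1) of Cxcl2, Ccl3 and Ccl4 minus that of Ccl6 and Ccl9 was -0.71 in Ctrl 1 and -0.99 in Ctrl 3, against -2.27 in Nar 1 and -2.06 in Nar 3. The inducible ligands were thus lower still against the myeloid pair with Nar, by a difference of -1.32 between the group means. The 3 ligands differed in this. Taken alone, Cxcl2 minus the myeloid pair went from 0.91 and 1.12 in Ctrl to -2.74 and -1.76 in Nar. The same quantity overlapped between the groups for Ccl3, at -0.60 and -1.69 in Ctrl and -1.77 and -1.67 in Nar, and for Ccl4, at -2.43 and -2.39 in Ctrl and -2.29 and -2.76 in Nar. The separation of the groups was thus seen for Cxcl2 and not for Ccl3 or Ccl4 taken alone.

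Ccl5 was higher in Nar relative to the mean of the myeloid pair, but not relative to Ccl9 alone. Its log2(FPKM + 0.1) exceeded their mean by 1.69 in Ctrl 1 and 2.38 in Ctrl 3, against 3.20 in Nar 1 and 2.64 in Nar 3, a rise of 0.89 between group means with narrow separation of the groups. Against Ccl6 alone, Ccl5 went from -0.25 and 0.12 in Ctrl to 2.09 and 1.14 in Nar. Against Ccl9 alone the groups overlapped, at 3.62 and 4.64 in Ctrl and 4.32 and 4.15 in Nar. The inducible mean minus Ccl5 was -2.39 and -3.37 in Ctrl and -5.47 and -4.71 in Nar. Such differences are descriptions, since an exact permutation test of 2 libraries against 2 cannot give a two-sided p below 0.33. Both differences depend on the pseudocount, the inducible one being -0.32 with a pseudocount of 1 and -1.67 with 0.01, and that of Ccl5 0.53 and 0.96. With a pseudocount of 1 the groups for Ccl5 minus the myeloid mean overlap, so their narrow separation is not kept.

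The ligands were set beside marker genes of blood cell types, whose counts are to be read against the 39.6% of all tested genes called lower. Neutrophil markers were called lower in Nar for 10 of 10 genes, with a summed level of 1359 to 1634 FPKM in Ctrl and 99.2 to 156.5 in Nar and no marker at 0. Among these, Camp and Ltf had Nar means of 0.45 and 0.485 FPKM and passed the filter on low values through their controls. Monocyte markers were called lower for 6 of 8, with sums of 361 to 426 FPKM in Ctrl and 96.9 to 140.6 in Nar. Their log2 fold changes ran from -4.30 for Cd14, a receptor for bacterial lipopolysaccharide, to -0.47 for the chemokine receptor Cx3cr1, which overlapped between groups and turned to 0.38 under median-of-ratios scaling. Csf1r, the receptor of macrophage colony-stimulating factor, was the other monocyte marker not called (-1.41, limma adjusted p = 0.0654). NK cell markers were called lower for 2 of 7, Gzma and Gzmb, a share below that of all tested genes, with sums of 22.5 to 24.0 FPKM in Ctrl and 5.31 to 10.96 in Nar. None of the 6 T cell and 6 B cell markers tested was called in limma, with 1 T cell and 0 B cell markers at an unadjusted p under 0.05. None of the 6 platelet and 8 erythroid markers tested was called either, with 0 and 0 at an unadjusted p under 0.05. Under median-of-ratios scaling 5 neutrophil markers, Camp and Ltf among them, and 2 monocyte markers were called lower and 0 of the NK cell markers, and the list medians of the log2 fold change went from -3.67 to -2.50 for neutrophils, from -1.90 to -0.81 for monocytes, from -1.29 to -0.33 for NK cells, from -0.45 to 0.56 for T cells and from -0.41 to 0.71 for B cells. Cx3cr1, Cd4, Klrb1c, Ncr1 and Klrd1, none of them called, also passed the filter through their controls. How far these markers account for the ligands' differences was not tested.

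Set against the mean log2 level of neutrophil markers in the same library, Cxcl2 was lower in Nar, while the other 5 ligands tested were higher. The mean of these markers differed by -3.73 between the groups, against a median of -1.07 for all tested genes. Most tested genes therefore stand higher against it in Nar, and this is no result about the 5 ligands. Cxcl10 and Cxcl16 were left out of this comparison, since at their levels the pseudocount sets the value. The Nar values of Cxcl2, 0.12 and 0.36 FPKM, lie near the pseudocount of 0.1 too. The size of its difference therefore depends on the pseudocount, and against neutrophil markers it is far smaller with 1. Cxcl2 minus those markers was -1.99 and -2.07 in Ctrl and -3.92 and -3.16 in Nar. Ccl6 minus those markers was -0.96 and -0.94 in Ctrl and -0.07 and 0.10 in Nar. Relative to monocyte markers, Ccl3 was at -1.12 and -2.0 in Ctrl and -2.41 and -1.26 in Nar, and Ccl4 at -2.95 and -2.71 in Ctrl and -2.93 and -2.35 in Nar. Both overlapped between the groups, as did Ccl6 minus monocyte markers. Cxcl2 minus monocyte markers did not overlap, at 0.40 and 0.81 in Ctrl and -3.38 and -1.35 in Nar. Ccl5 minus NK cell markers overlapped, at 3.16 and 3.89 in Ctrl and 3.55 and 4.09 in Nar. Ccl5 minus T cell markers was lower in Nar by a narrow gap, at 4.16 and 5.07 in Ctrl and 3.99 and 4.01 in Nar.

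**Figure D4:**
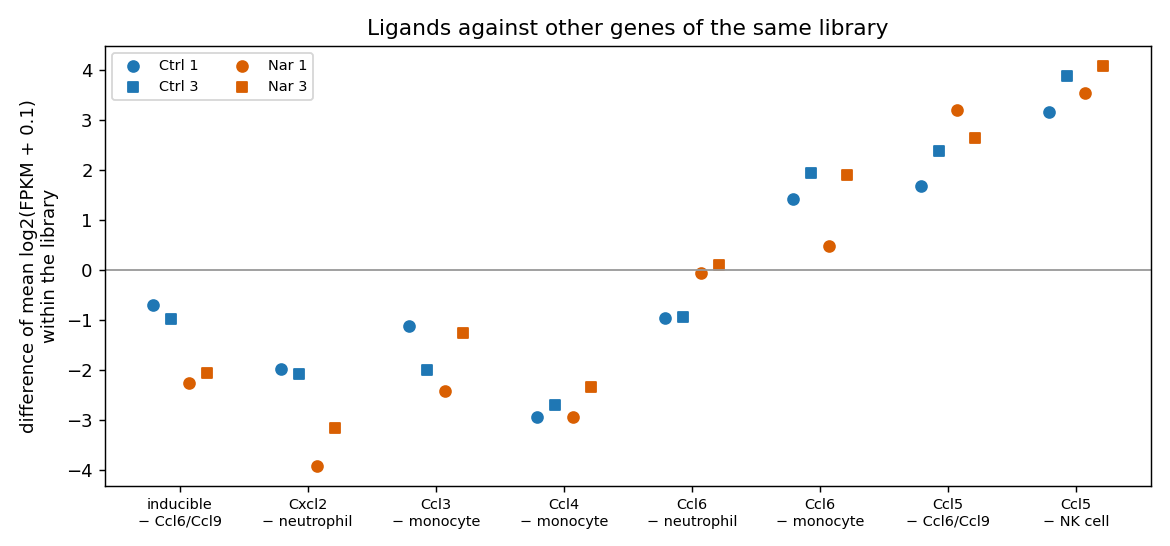
Differences of mean log2(FPKM + 0.1) between ligands and other genes of the same library, with the gene or list subtracted named under each column. Blue is Ctrl and orange Nar, with circles for library 1 and squares for library 3. Cxcl2 against neutrophil markers is lower in Nar, while Ccl4 against monocyte markers and Ccl5 against NK cell markers overlap between groups.

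Few other chemokine ligands were detected above 0.5 FPKM in blood. Of 32 other ligands 31 were listed, 9 were blank, 6 were at 0 in each library and 3 passed the filter. None of the 3 was called in limma, and 1 had an unadjusted p under 0.05. Platelet factor 4 (Pf4) was at 232.62 FPKM in Ctrl 1 and 846.36 in Ctrl 3, against 150.2 in Nar 1 and 161.05 in Nar 3 (log2 fold change -1.51, limma adjusted p = 0.0709). Platelet markers summed to 419.8 and 1327 FPKM in Ctrl and 364 and 277 FPKM in Nar, with Ctrl 3 the highest as for Pf4, and their part in its values was not tested. Ppbp, the other platelet chemokine, overlapped between groups at 111.04 and 234.49 FPKM in Ctrl and 119.3 and 58.02 in Nar. Cxcl5, a further Cxcr2 ligand, was at 0.45 and 1.08 FPKM in Ctrl and 0.41 and 0.23 in Nar (limma adjusted p = 0.126), so it passed the filter on low values through its controls. Ccl2, the main monocyte attractant, did not exceed 0.28 FPKM, and Cxcl3, the nearest relative of Cxcl2 besides Cxcl1, was listed at 0 in both controls and at 0.09 and 0 FPKM in Nar.

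Of 9 receptors that bind the ligands, 4 were tested and 2 were called lower, a share near the 39.6% of all tested genes and no result about receptors as a group. Cxcr2, the neutrophil receptor for Cxcl1 and Cxcl2, was at 12.97 and 7.51 FPKM in Ctrl and 1.03 and 1.48 in Nar (log2 fold change -2.90, limma adjusted p = 0.0057). Ccr1, which binds Ccl3, Ccl5, Ccl6 and Ccl9, was at 4.25 and 3.89 FPKM in Ctrl and 0.30 and 0.65 in Nar (log2 fold change -2.93, limma adjusted p = 0.00439), so it passed the filter on low values through its controls. Under median-of-ratios scaling these log2 fold changes were -1.77 and -1.86, and neither was called. Cxcr3, the Cxcl10 receptor of activated T cells, and Ackr1, an atypical receptor on red cells that binds chemokines without signalling, overlapped between groups. With a Nar mean of 0.48 FPKM, Cxcr3 also passed the filter through its controls. Cxcl2 was lower relative to its receptor in both Nar libraries, where Cxcl2 minus Cxcr2 on the log2 scale was 0.05 and 0.48 in Ctrl and -2.36 and -1.78 in Nar.

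Of 16 genes known to induce, restrain or shed these ligands, 13 were tested and 10 were called lower and 0 higher, beside 39.6% called lower among all tested genes. Tlr2, Nfkbiz, Tnfaip3 and Adam17 had Nar means under 0.5 FPKM and passed the filter through their control libraries. Il1b, a cytokine that induces Cxcl1 and Cxcl2, had a log2 fold change of -4.22 (limma adjusted p = 0.00247) and was at 14.9 and 26.28 FPKM in Ctrl and 1.12 and 0.83 in Nar. Irf1, an interferon-response transcription factor, had one of -3.16 (limma adjusted p = 0.00427). These 2 were also called under median-of-ratios scaling. Nfkbiz, a nuclear cofactor of NF-kappaB, had a log2 fold change of -3.04 and Zfp36, which destabilizes chemokine and cytokine messages, one of -3.09. The NF-kappaB subunit Rela had a smaller one of -1.14 (limma adjusted p = 0.038), and Nfkb1 was not called (-0.93, limma adjusted p = 0.0816). Adam10 and Adam17, proteases that shed membrane proteins such as Cxcl16, were not called, with log2 fold changes of -0.95 and -1.0.

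**Figure D5:**
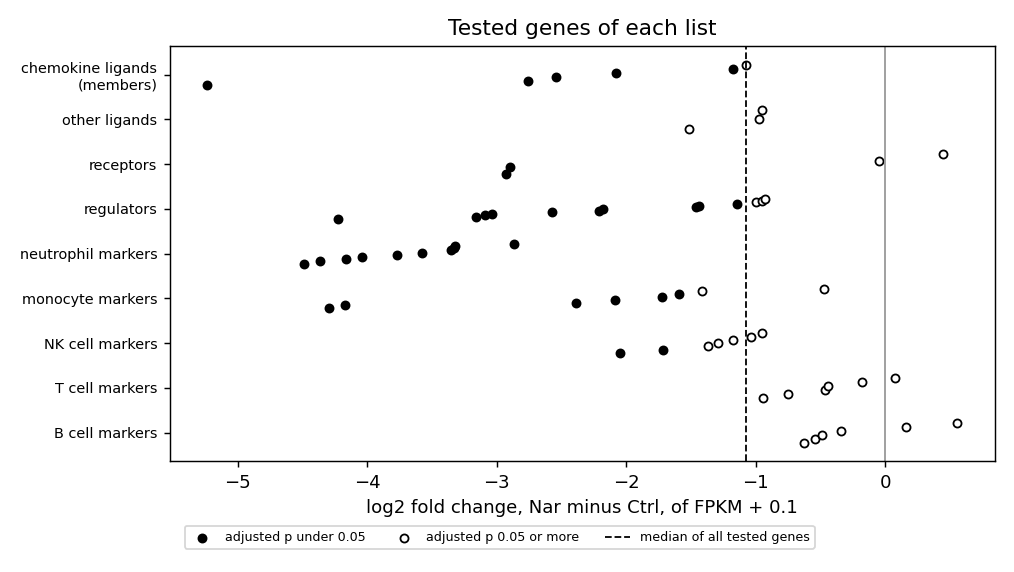
Log2 fold change of FPKM + 0.1, Nar minus Ctrl, for the tested genes of each list, 1 point per gene. Filled points had a limma adjusted p under 0.05, and the dashed line is the median of all tested genes (-1.07). All 10 neutrophil markers are filled and lie left of the line, and T cell and B cell markers are open.

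Over the 4 libraries, the tested genes nearest in pattern were found by the Euclidean distance between log2(FPKM + 0.1) values centred on each gene's mean. For Cxcl2 these were Ngp (distance 0.858), Slfn4 (0.957) and Cd14 (0.981), with log2 fold changes of -4.49, -4.78 and -4.30. For Ccl6 they included Il13ra1 (0.165) and C5ar1 (0.166), and for Ccl5 they were Dhx9 (0.035), Copg2 (0.0614) and Mfap3 (0.0636). Of the genes named here, Slfn4, Il13ra1, C5ar1 and Mfap3 had Nar means under 0.5 FPKM and passed the filter through their controls. The values were not scaled, so the distance depends on the size of the change as well as its shape.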

How the data were processed

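Blood mRNA was sequenced in 2 PBS-treated (Ctrl) and 2 Nar-treated libraries. The deposited values are FPKM for each gene and library, made by the authors and given to 2 decimals. The study's methods name bowtie-2 alignment to reference gene sequences, while the submitters' processing notes name TopHat2, Cufflinks and GRCm38. Versions and the annotation are not given in the sources used here. The authors' DEGseq test needs read numbers and was not repeated. Value columns without a sample numbered 0. Groups came from the sample titles.

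Values were taken as log2(FPKM + 0.1), which understates changes of low genes, for the 5339 genes whose mean reached 0.5 FPKM, and compared with limma 3.58.1 in R 4.3.3 (trend, Benjamini-Hochberg over all tested genes). Intervals are limma's. The labels do not say that the libraries came from separate animals, so p-values measure the spread between these libraries, which may be technical. Members and lists were chosen with earlier results of these data known. Named genes were the 9 ligands, the lists, and the 3 tested genes nearest in pattern to Cxcl2, Ccl6 and Ccl5, of which 1 is not reported here. The class means use 3 inducible ligands, since Cxcl1 was blank. Alternatives were pseudocounts of 1 and 0.01, no filter, a stricter filter at 5 FPKM, rescaling to 1000000 (TPM), removal of haemoglobin genes, median-of-ratios scaling, no trend, a replicate block and leaving out each library. The steps were tested on simulated data. Positions came from GENCODE M21 and promoters from RefSeq, and the shared promoter run was chosen after the sequences were seen.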

Additional observations from a re-analysis of the deposited data

How the results depend on the processing

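Across the alternatives, the log2 fold change of Cxcl2 ran from -5.77 to -3.38, that of Ccl6 from -2.99 to -1.60, of Ccl3 from -3.36 to -1.44, of Ccl4 from -2.57 to -0.79 and of Ccl9 from -1.61 to -0.14, with no change of sign. Ccl5 reversed from -1.08 to 0.089987 with median-of-ratios scaling. For these changes the cause was not tested. Counts below are of genes called lower in limma, in the order all tested genes, the chemokine ligands, their receptors and the regulators, which were 2113, 5, 2 and 10. Without the filter they were 0, 0, 0 and 0 (8, 9 and 16 genes of the lists entered), and at a mean FPKM of at least 5 they were 116, 2, 1 and 2 of 1083, 3, 1 and 2 tested. With haemoglobin genes removed, which moved the shift over all tested genes from -1.07 to -0.56, 267 genes and 3 ligands were called, without Ccl4 (adjusted p = 0.137) and Ccl9 (adjusted p = 0.389). Ccl9 also lost its call with a pseudocount of 1 and without the trend. Median-of-ratios scaling gave 32, 1, 0 and 2, with 10 genes higher. Leaving out 1 library gave 0 to 254 genes, 0 to 1 ligands, 0 to 2 receptors and 0 to 5 regulators. The lowest counts came without Ctrl 1 and without Ctrl 3, with 2682 and 2133 genes at an unadjusted p under 0.05; a group left with 1 library was assumed to vary like the other. Of ligands outside the 9, 2 to 16 were tested and 0 called under each alternative other than the crossed block, which was not counted for them. The inducible minus myeloid difference of -1.32 was -0.32 with a pseudocount of 1 and -1.67 with 0.01, and ran from -1.46 to -1.18 with 1 library left out; that of Ccl5, 0.89, ran from 0.54 without Ctrl 1 to 1.24 without Ctrl 3 and was 0.53 with a pseudocount of 1. Deviations of same-numbered libraries from their group means had a weak negative correlation across genes (-0.153). This does not settle whether the numbers pair the samples, and the main fit used no pairing. With the replicate block 1802 genes, 5 ligands, 2 receptors and 8 regulators were called lower, and with the crossed block, chosen after seeing the data, 3211 genes and 6 ligands. Few fragments behind the Nar values of Cxcl2, Ccl3 and Ccl4 limit their folds.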
